A study of Mus musculus with 9 samples.

Results

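The cadherins and protocadherins were followed across neural stem cells given NAT, P7C3-A20 or the vehicle. Members were every gene symbol made of Cdh or Pcdh and a number, together with Celsr1, Celsr2, Celsr3, Fat1, Fat3, Fat4 and Dchs1. This rule found 41 genes among the 23420 rows of the expression table. Of these, 27 reached 1 TPM in at least 3 libraries and are described in depth. TPM is a transcript level per unit of gene length, scaled to the same total in every library. The other 14 stayed below that level.

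The cells came from the hippocampus of 2-day-old wild type C57BL/6J mice and were expanded in culture, then moved to a medium lacking bFGF and EGF, which lets them differentiate. There they were treated with NAT, a compound the labels give by code name only, with P7C3-A20, an aminopropyl carbazole, each at 3 µM, or with the vehicle DMSO. Each group had 3 libraries, called biological replicates in the labels with no word on separate animals or cultures, and p-values therefore cover only the spread between these libraries. Withdrawal of the growth factors was common to all 3 groups, and no untreated or undifferentiated cells were analysed here. Each compound was set against DMSO, and the compounds, at equal dose, against one another.

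Cadherins are calcium-dependent adhesion proteins of the cell surface. Classical cadherins of type I and type II bind like partners on neighbouring cells and hold the actin cytoskeleton through catenins, and in the neural stem cell niche they keep progenitors anchored to one another. Protocadherins of the delta group adhere more weakly and take part in sorting neurons, axons and synapses. The Celsr proteins are large cadherins with a receptor tail that organise planar cell polarity, while Fat and Dachsous cadherins pair as receptor and ligand between cells.

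Every library held reads for most members, and the levels of the 41 genes added up to between 1367 and 1511 TPM per library. The 8 members with the highest mean level supplied 62.9 to 65.4% of that sum. Depth was 11487218 to 13604222 reads in the DMSO libraries, 12738006 to 13516248 with NAT and 15380977 to 16929714 with P7C3-A20, as read from the steps of the low TPM values. Of the 8 neural progenitor markers and the 6 astrocyte markers examined, all were expressed, as were 7 of 7 oligodendrocyte lineage and 7 of 8 neuronal markers. Summed microglial markers stayed between 0 and 0.314 TPM, with Cx3cr1, C1qc and Trem2 listed at 0 in all 9 libraries. Of the 6 endothelial markers, Kdr alone passed the level minimum, and Cldn5 was listed at 0. No gene of the mesenchymal or meningeal list or of the epithelial list passed it, with Lum and Cldn3 listed at 0. In such bulk RNA, fewer cells of a type and less RNA per cell cannot be told apart.

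The type II cadherin genes show how sharply family members differ along a chromosome. On mouse chromosome 15, RefSeq places Cdh6, Cdh9, Cdh10 and Cdh12 in this order with no other protein-coding gene between neighbours. Cdh10 averaged 52.4 TPM over the 9 libraries and Cdh6 averaged 32.0 TPM, whereas Cdh9 averaged 0.0982 TPM from 12 reads in all and Cdh12 averaged 0.0600 TPM from 16 reads in all. The 250 bases before the annotated start of each gene are shown to set the expressed pair beside its near-silent neighbours. They are from RefSeq on build GRCm38.p6, 5′ to 3′ on the strand of the gene, with each CG dinucleotide in capitals. Their positions are chr15:13173676-13173925 on the minus strand for Cdh6, and on the plus strand chr15:16728665-16728914 for Cdh9, chr15:18820079-18820328 for Cdh10 and chr15:21111202-21111451 for Cdh12.
Cdh6: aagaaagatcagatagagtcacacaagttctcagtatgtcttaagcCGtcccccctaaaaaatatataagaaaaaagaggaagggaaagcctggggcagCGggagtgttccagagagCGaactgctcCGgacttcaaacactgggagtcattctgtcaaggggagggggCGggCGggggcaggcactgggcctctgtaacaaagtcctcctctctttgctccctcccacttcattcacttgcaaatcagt
Cdh9: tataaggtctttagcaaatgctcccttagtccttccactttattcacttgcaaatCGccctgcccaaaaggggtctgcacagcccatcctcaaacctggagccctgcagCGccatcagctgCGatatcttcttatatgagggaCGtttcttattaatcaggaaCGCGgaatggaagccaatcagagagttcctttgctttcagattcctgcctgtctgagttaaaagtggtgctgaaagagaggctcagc
Cdh10: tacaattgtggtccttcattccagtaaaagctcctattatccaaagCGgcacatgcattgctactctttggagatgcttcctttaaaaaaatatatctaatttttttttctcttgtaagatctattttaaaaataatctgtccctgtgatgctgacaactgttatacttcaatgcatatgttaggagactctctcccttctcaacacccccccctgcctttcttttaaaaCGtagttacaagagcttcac
Cdh12: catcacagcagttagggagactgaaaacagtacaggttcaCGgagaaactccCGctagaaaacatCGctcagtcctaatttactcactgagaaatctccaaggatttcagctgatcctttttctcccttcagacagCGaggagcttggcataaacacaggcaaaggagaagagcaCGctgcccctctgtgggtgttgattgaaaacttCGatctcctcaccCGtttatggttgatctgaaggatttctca

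These windows held 6 CG dinucleotides for Cdh6, 6 for Cdh9, 2 for Cdh10 and 7 for Cdh12, so the count did not follow the level within this chromosomal group. Promoter windows of the same length, at the start farthest upstream of each gene, were matched for 27 of the 41 members. The expressed Cdh2, Cdh13, Cdh11, Cdh4, Dchs1, Cdh19, Pcdh1 and Celsr1 had no matched window. Among the 19 matched members above the level minimum the median was 16 CG, against 6.5 among the 8 below it. It was 6 over all 27025 genes with a window, whatever their level. At least 10 CG were found in 13 of the 19 (68.4%), in 2 of the 8 (25.0%) and in 38.2% of all genes. The richest windows belonged to Celsr2 with 32 CG, Cdh22 with 30 and Fat3 with 27. Fat1 and Cdh10, both well expressed, had 2 each. The letters CAGGTG or CACCTG, a word and its reverse complement that hold the core bound by Snail and Zeb repressors of cadherin genes, were found in 3 of the 19 expressed members (Fat1, Celsr2 and Pcdh15), in 1 of the 8 others (Cdh7) and in 17.1% of all genes. A match is a description of the letters and not of binding.

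Other neighbouring members were also unequal, to differing degrees. With no protein-coding gene between them, Cdh19 averaged 52.3 TPM beside Cdh7 at 0.294 TPM, and Cdh11 averaged 85.7 TPM between Cdh8 at 0.272 TPM and Cdh5 at 0. Pcdh9 averaged 63.7 TPM next to Pcdh20 at 3.39 TPM, a smaller gap. The adjacent Cdh3 and Cdh1 were both near silent, at 0.0193 and 0.101 TPM. The members nearest the level minimum were Pcdh18 (mean 3.24 TPM), Pcdh20 and Pcdh8 (4.82 TPM) above it, and Cdh7, Cdh8 and Cdh17 (0.239 TPM) below it. The minimum of 1 TPM thus fell in a gap between these groups of genes.

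**Figure D1:**
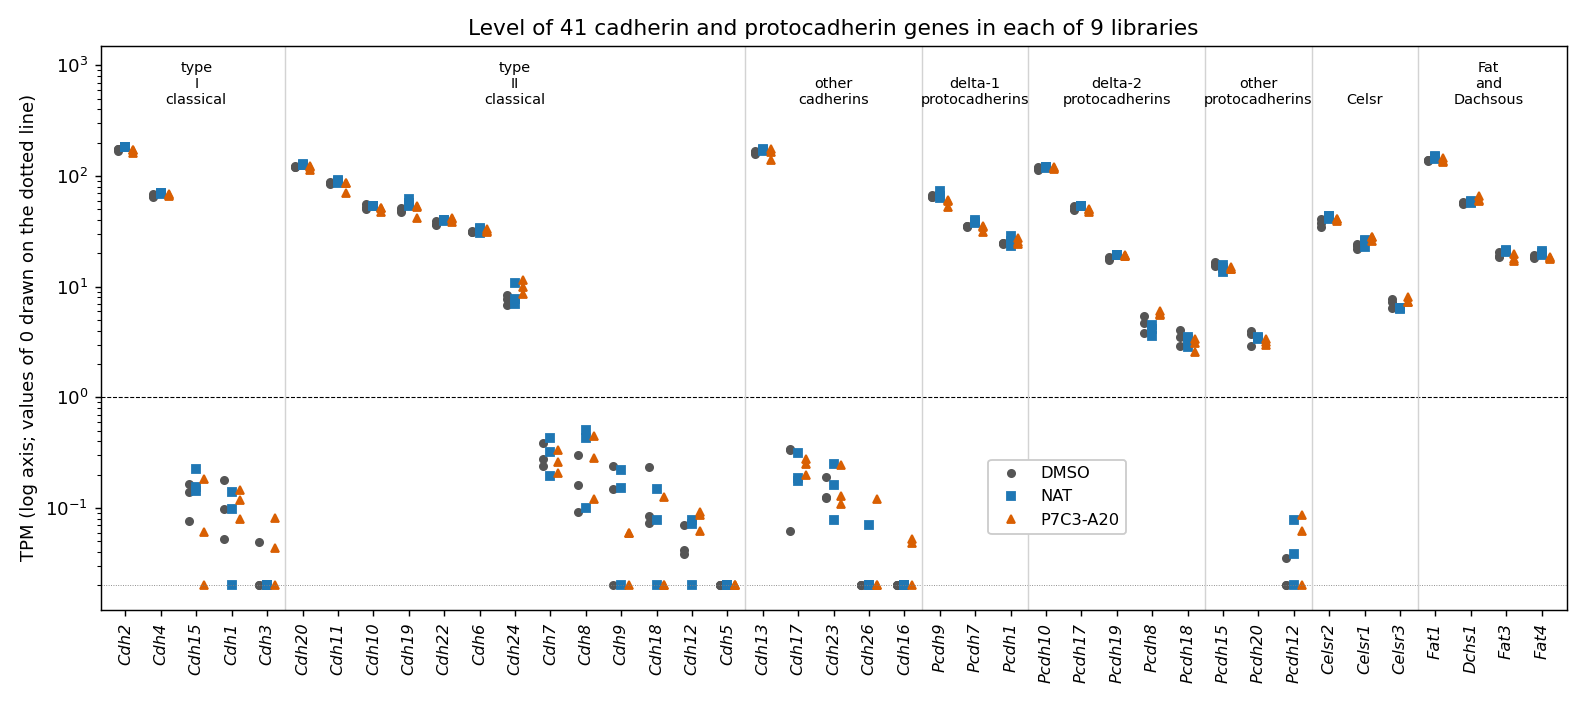
Level in TPM (log axis) of each of the 41 genes, grouped by class, with 1 point per library and 3 libraries per group. The dashed line marks the minimum of 1 TPM and the dotted line holds values of 0. The 27 genes above the minimum lie at 2.55 TPM or more in every library, and the 14 others at 0.508 TPM or less.

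Among the type I classical cadherins, 2 of 5 genes were expressed. Cdh2 encodes N-cadherin, the main adhesion protein of neural progenitors, and had the highest mean level of all members, 174.8 TPM. It stood at 169, 174 and 175 TPM in DMSO replicates 1, 2 and 3, at 183, 183 and 182 TPM with NAT, and at 172, 173 and 161 TPM with P7C3-A20. The NAT libraries were the 3 highest and P7C3-A20 replicate 3 was the lowest. Cdh4, which encodes R-cadherin of the retina and brain, read 65.8, 69.6 and 65.3 TPM with DMSO, 70.8, 70.8 and 68.9 TPM with NAT, and 67.8, 68.3 and 65.9 TPM with P7C3-A20. Its groups overlapped except that NAT lay above P7C3-A20.

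Cdh1, the gene of epithelial E-cadherin, was close to silent. It had 0.0982, 0.0530 and 0.180 TPM with DMSO, 0, 0.138 and 0.0989 TPM with NAT, and 0.0787, 0.146 and 0.118 TPM with P7C3-A20, from 21 reads in all 9 libraries. Between 0 and 4 reads per library leave no measurable difference between groups. Cdh3 (P-cadherin) had 4 reads in all and Cdh15, a muscle cadherin, had 16. The level of N-cadherin message per unit length was thus set against almost no message for E-cadherin in every group.

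The type II classical cadherins contributed the largest summed level of any class, 359 to 418 TPM, from 7 expressed genes of 13. Cdh20 led them with 122, 122 and 121 TPM under DMSO, 125, 129 and 125 TPM under NAT, and 123, 121 and 114 TPM under P7C3-A20. Its NAT libraries were the highest of the 9 and its range was narrow, with a coefficient of variation over all libraries of 3.48%. Cdh11, also expressed by mesenchymal cells, had 89.1, 85.1 and 86.0 TPM with DMSO, 91.4, 86.3 and 90.2 TPM with NAT, and 86.8, 86.4 and 70.5 TPM with P7C3-A20. Only P7C3-A20 replicate 3 lay apart from the other libraries. The mesenchymal or meningeal markers were nearly silent in the same libraries, at a summed 0.559 to 1.46 TPM over 6 genes.

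Cdh19, a type II cadherin known from glial precursors of peripheral nerve, varied more than its neighbours in level. It had 51.2, 49.8 and 47.5 TPM with DMSO, 57.6, 53.8 and 62.3 TPM with NAT, and 52.6, 54.0 and 41.9 TPM with P7C3-A20. All 3 NAT libraries stood above the DMSO libraries, while the P7C3-A20 libraries spread over both. The type II cadherin gene Cdh22 had 36.7, 39.5 and 36.1 TPM with DMSO, 39.5, 40.0 and 40.2 TPM with NAT, and 38.2, 40.7 and 41.5 TPM with P7C3-A20. Cdh24, which also encodes a type II protein, was measured from only 79 to 182 reads per library. Its levels were 8.34, 6.77 and 7.80 TPM with DMSO, 6.95, 7.69 and 10.8 TPM with NAT, and 9.87, 8.56 and 11.6 TPM with P7C3-A20, and its coefficient of variation of 19.4% was the highest of the 27 genes. Cdh6 (32.0 TPM on average) and Cdh10 stayed within 30.9 to 33.8 TPM and 47.5 to 56.5 TPM. Cdh5, the gene of the endothelial VE-cadherin, was listed at 0 in all 9 libraries.

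Of the other cadherins, Cdh13 alone was expressed. It encodes T-cadherin, which lacks the cytoplasmic tail and sits in the membrane by a lipid anchor. Its levels were 166, 168 and 157 TPM with DMSO, 172, 175 and 167 TPM with NAT, and 176, 166 and 139 TPM with P7C3-A20. P7C3-A20 held both the highest and the lowest library, and the 3 groups overlapped. Cdh13 and Cdh2 overlapped in range over the 9 libraries, but within each library Cdh2 was the higher, except in P7C3-A20 replicate 1. Likewise Cdh20 and Pcdh10 overlapped, with Cdh20 the higher in each library except P7C3-A20 replicate 3. Such an order between genes also rests on the authors' gene lengths. Cdh16, Cdh17, Cdh23 and Cdh26, whose best known sites are kidney, gut and sensory epithelia, stayed at 0.345 TPM or less, with 2 reads in all for Cdh16 and 3 for Cdh26.

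All 3 delta-1 protocadherins were expressed, with a summed 111 to 139.5 TPM. Pcdh9 had 65.0, 67.7 and 64.6 TPM with DMSO, 73.7, 63.5 and 66.2 TPM with NAT, and 60.8, 59.7 and 52.0 TPM with P7C3-A20. Every P7C3-A20 library was below every library of the other groups. Pcdh7 followed with 35.6, 35.2 and 34.8 TPM under DMSO, 39.9, 38.2 and 37.4 TPM under NAT, and 35.3, 34.7 and 31.5 TPM under P7C3-A20, the NAT libraries standing highest. Both proteins belong to the protocadherins with a binding motif for protein phosphatase 1 in the cytoplasmic tail. Pcdh1 ranged from 23.6 to 28.6 TPM with all groups overlapping.

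All 5 delta-2 protocadherins passed the minimum as well, and their sum ran from 189 to 201 TPM over the libraries. Pcdh10, which links to actin regulators in growing axons, was the steadiest of the 27 genes with a coefficient of variation of 1.77%. It read 114, 117 and 119.7 TPM with DMSO, 121, 119 and 119.7 TPM with NAT, and 116, 118 and 120.2 TPM with P7C3-A20. Pcdh17, known from synapses of the basal ganglia, had 50.1, 53.2 and 49.5 TPM with DMSO, 53.1, 53.2 and 53.7 TPM with NAT, and 50.6, 49.5 and 47.5 TPM with P7C3-A20. NAT and P7C3-A20 did not overlap for this gene, while DMSO lay across both. Pcdh8, an activity-induced protocadherin of neurons, was low, at 3.79, 5.43 and 4.67 TPM with DMSO, 3.61, 4.17 and 4.47 TPM with NAT, and 5.69, 5.51 and 6.02 TPM with P7C3-A20. The P7C3-A20 libraries were the 3 highest, from 67 to 139 reads per library over the 9. Pcdh19, the gene of an X-linked epilepsy, kept to 17.6 to 19.3 TPM, and Pcdh18 to 2.55 to 4.04 TPM.

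Pcdh15, which forms tip links of sensory hair cells, was expressed here at 15.5, 16.1 and 16.8 TPM with DMSO, 15.6, 13.5 and 14.8 TPM with NAT, and 14.4, 14.5 and 15.0 TPM with P7C3-A20. The P7C3-A20 libraries lay below the DMSO libraries and NAT overlapped both. Its tip-link partner gene Cdh23 was near silent, at 0.0776 to 0.249 TPM. Pcdh20 ranged from 2.90 to 4.01 TPM, and Pcdh12, an endothelial protocadherin, had 9 reads in all.

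The 3 Celsr genes summed to 63.1 to 77.5 TPM. Celsr2 was the highest, with 34.9, 38.0 and 41.3 TPM under DMSO, 40.8, 44.0 and 43.9 TPM under NAT, and 39.6, 41.3 and 41.3 TPM under P7C3-A20. DMSO replicate 1 was the lowest of the 9 and DMSO replicate 3 overlapped both compounds. Celsr1 gave 21.8, 23.3 and 24.4 TPM with DMSO, 23.0, 26.0 and 26.3 TPM with NAT, and 28.1, 26.0 and 28.0 TPM with P7C3-A20, so that P7C3-A20 lay above DMSO in every library. Celsr3, the member tied to axon guidance, kept to 6.31 to 8.14 TPM.

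Fat1 was the most abundant of the Fat and Dachsous genes. This giant cadherin controls actin and growth, and its level was 139.9, 138 and 138 TPM with DMSO, 151, 149 and 143 TPM with NAT, and 145, 134 and 138 TPM with P7C3-A20. The NAT libraries stood above DMSO, and P7C3-A20 overlapped both. Dchs1, the ligand of Fat4, had 57.0, 56.5 and 58.9 TPM with DMSO, 57.1, 59.2 and 58.6 TPM with NAT, and 61.0, 59.1 and 66.7 TPM with P7C3-A20. Fat4 itself averaged 18.9 TPM (17.8 to 21.1), below the level of Dchs1 per unit length in every library. Fat3 had 20.7, 19.0 and 18.5 TPM with DMSO, 21.1, 20.6 and 21.5 TPM with NAT, and 19.9, 17.8 and 17.1 TPM with P7C3-A20, with NAT above P7C3-A20 in every library.

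With NAT against DMSO, no member passed an adjusted p of 0.05. Cdh2 averaged 183 ± 0.515 TPM with NAT and 173 ± 3.04 TPM with DMSO (SD, n = 3), and Cdh19 averaged 57.9 ± 4.23 and 49.5 ± 1.88 TPM. Celsr2 stood at 42.9 ± 1.79 TPM against 38.1 ± 3.20 TPM, Pcdh7 at 38.5 ± 1.27 against 35.2 ± 0.378 TPM and Fat1 at 148 ± 4.36 against 139 ± 0.984 TPM. These are an adhesion protein of progenitors, a glial precursor cadherin, a polarity receptor, a delta-1 protocadherin and a Fat cadherin, and they had the lowest p among the members, all with the NAT mean higher. The log2 fold changes of TPM + 1 were 0.17 ± 0.06 (SE) for Celsr2, 0.22 ± 0.09 for Cdh19, 0.13 ± 0.05 for Pcdh7, 0.09 ± 0.04 for Fat1 and 0.08 ± 0.03 for Cdh2. Pcdh15 was next with -0.13 ± 0.07. Celsr2 was 0.11 without DMSO replicate 1, and Pcdh15 was -0.08 without NAT replicate 2. Cdh2 was 0.05 once the dependence on gene GC content was taken out per library, and Fat1 was 0.06 with voom on the recovered reads. The lowest adjusted p in limma was 0.336, for Celsr2.

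Over all 13839 genes tested, limma called 0.0289% in this comparison, and 0 of the 27 members. An unadjusted p below 0.05 was found for 5 members higher and 0 lower with NAT, against 8.67% and 3.0% of all genes. After quantile normalization it was found for 2 higher and 1 lower, beside 10.2% of all genes in either direction. With voom on the recovered reads, which called 0.195% of all genes, 0 members were called, and 3 higher and 2 lower had an unadjusted p below 0.05, as did 9.97% of all genes. Without DMSO replicates 1, 2 and 3 the limma count of 5 fell to 2, 3 and 2, beside 9.38%, 8.97% and 12.1% of all genes. Without NAT replicates 1, 2 and 3 it fell to 3, 1 and 2, beside 10.9%, 9.74% and 8.07%. A positive log2 fold change was found for 22 of 27 members and for 63.5% of all genes, with medians of 0.07 and 0.03. With voom these were 20 of 27 and 50.4%, and the member median was 0.04. The NAT and DMSO groups did not overlap for 8 members, all higher with NAT, a direction of separation found in 14.1% of all genes (lower: 4.89%). The 95% intervals, as ratios of TPM + 1, lay within 1.25-fold in either direction for 22 members and within 1.5-fold for all 27. The widest bounds were 0.753 and 1.36. For low genes a ratio of TPM + 1 lies nearer to no change than the ratio of TPM, so these counts do not bound the fold in TPM.

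**Figure D2:**
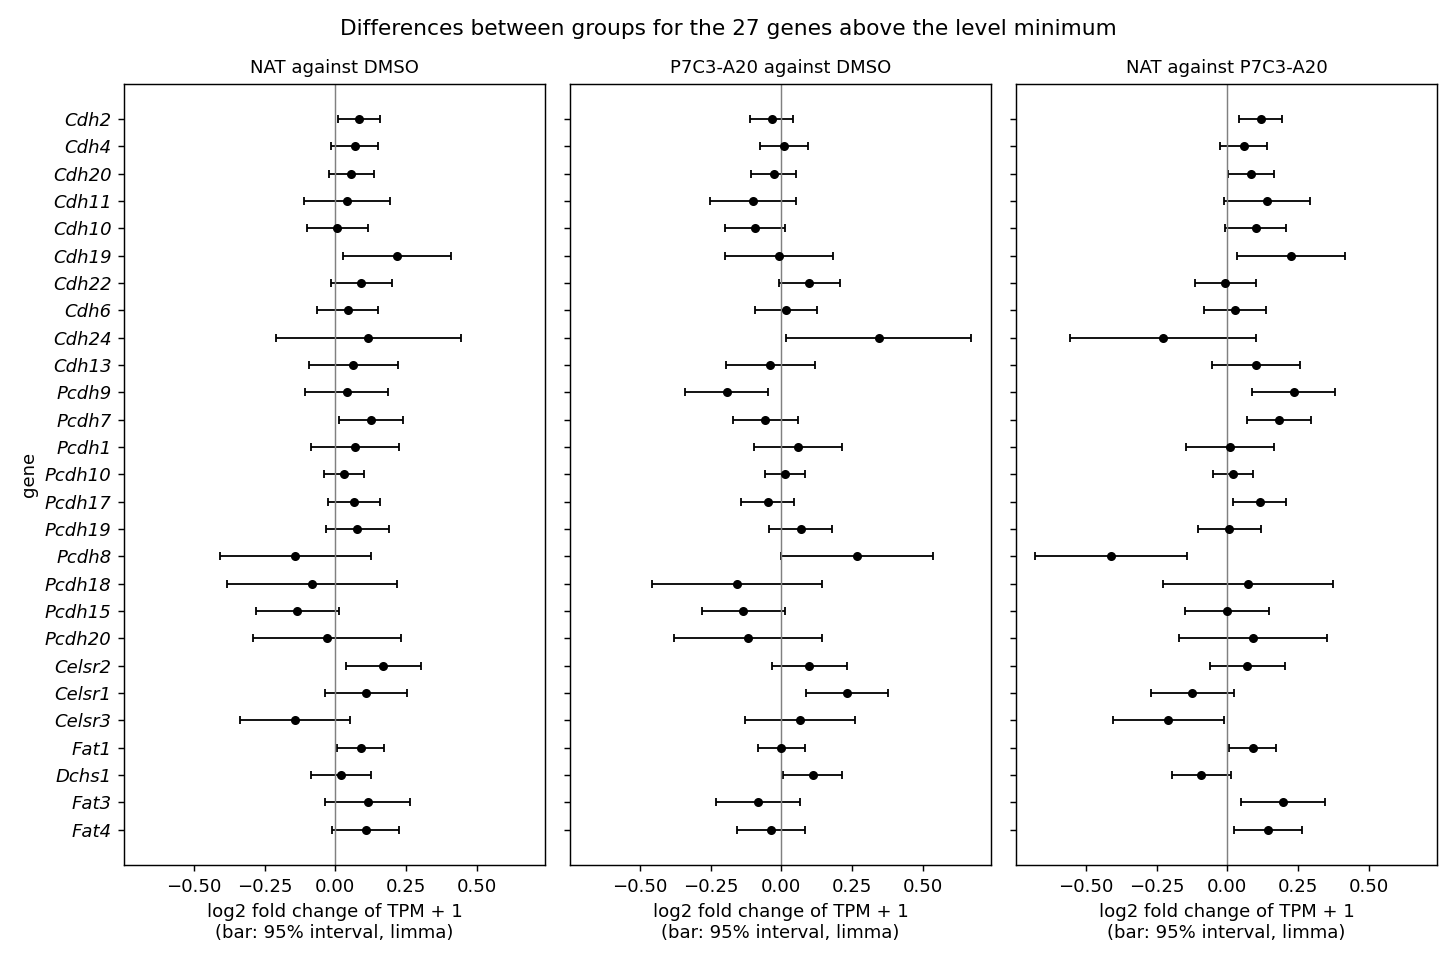
Log2 fold change of TPM + 1 for the 27 genes in each comparison, with 95% intervals from limma (3 libraries per group, 6 residual degrees of freedom). Most NAT against DMSO values lie right of 0 (22 of 27), and the widest intervals belong to the low genes Cdh24, Pcdh8, Pcdh18 and Pcdh20.

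With P7C3-A20 against DMSO, 0 of 27 members were called, beside 0.0217% of all genes. Celsr1 averaged 27.4 ± 1.23 TPM with P7C3-A20 and 23.2 ± 1.33 TPM with DMSO (SD, n = 3), which gave 0.23 ± 0.07 (SE) on the log2 scale and the lowest adjusted p of the members in limma, 0.172. Pcdh9 averaged 57.5 ± 4.78 against 65.8 ± 1.69 TPM, which gave -0.19 ± 0.07 and 0.217 in the same order. Dchs1 followed with 62.2 ± 3.98 against 57.4 ± 1.27 TPM (0.11 ± 0.05), Cdh24 with 10.0 ± 1.51 against 7.64 ± 0.798 TPM (0.34 ± 0.15) and Pcdh8 with 5.74 ± 0.260 against 4.63 ± 0.822 TPM (0.27 ± 0.12). Cdh22 was at 40.2 ± 1.73 against 37.4 ± 1.81 TPM (0.10 ± 0.05). Without P7C3-A20 replicate 3, Dchs1 was 0.06 and Pcdh9 -0.12, and without DMSO replicate 1, Pcdh8 was 0.16. Thus a polarity receptor, the Fat4 ligand and 3 cadherins or protocadherins of moderate or low level had higher means, and a delta-1 protocadherin had a lower mean.

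An unadjusted p below 0.05 was found for 4 members higher and 1 lower in limma, against 10.7% and 5.12% of all genes. After quantile normalization it was found for 2 higher and 3 lower, beside 16.0% of all genes in either direction. With voom it was found for 4 higher and 5 lower, beside 18.1%. The limma count of 5 was 3 without DMSO replicate 1, beside 10.1% of all genes. It was 1, Celsr1, without P7C3-A20 replicate 3, beside 12.0%. Groups did not overlap for 5 members higher and 2 lower, against 13.1% and 7.49% of all genes, and without P7C3-A20 replicate 3 for 6 higher and 2 lower, against 20% and 10.7%. A positive value was found for 12 of 27 members and for 55.2% of all genes, or for 9 and 48.8% after quantile normalization. The median was -0.01 among members and 0.01 over all genes. The member median was -0.05 without P7C3-A20 replicate 1, -0.03 without replicate 2 and 0.01 without replicate 3. In the last case 15 of 27 were positive, beside 58.5% of all genes. The 95% interval of the ratio of TPM + 1 lay within 1.25-fold for 21 members and within 1.5-fold for 26. Cdh24 was the exception on this scale, with bounds of 1.01 and 1.59. In TPM the intervals of low genes such as Pcdh8, Pcdh18 and Cdh24 are wider than these. With voom on the recovered reads, 2 members were called beside 1.81% of all genes, namely Celsr1 (0.22, adjusted p = 0.0235) and Pcdh9 (-0.21, adjusted p = 0.0338).

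The values in this comparison moved with the GC content of the genes. Across the 27 members, the log2 fold change of P7C3-A20 against DMSO was higher in genes of higher GC content, with a Pearson r of 0.746 and a Spearman rho of 0.745, and over 13701 tested genes rho was 0.479. For NAT against DMSO, r was -0.006 and rho 0.276 among members, and rho was 0.007 over all genes. For NAT against P7C3-A20, r was -0.652 and rho -0.605 among members, and rho was -0.470 over all genes. These are correlations across genes, which share the same 9 libraries and are not independent replicates. GC content ran from 33.8% in Cdh10 and 37.4% in Cdh19 to 61.2% in Cdh24 and 62.7% in Cdh22.

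**Figure D3:**
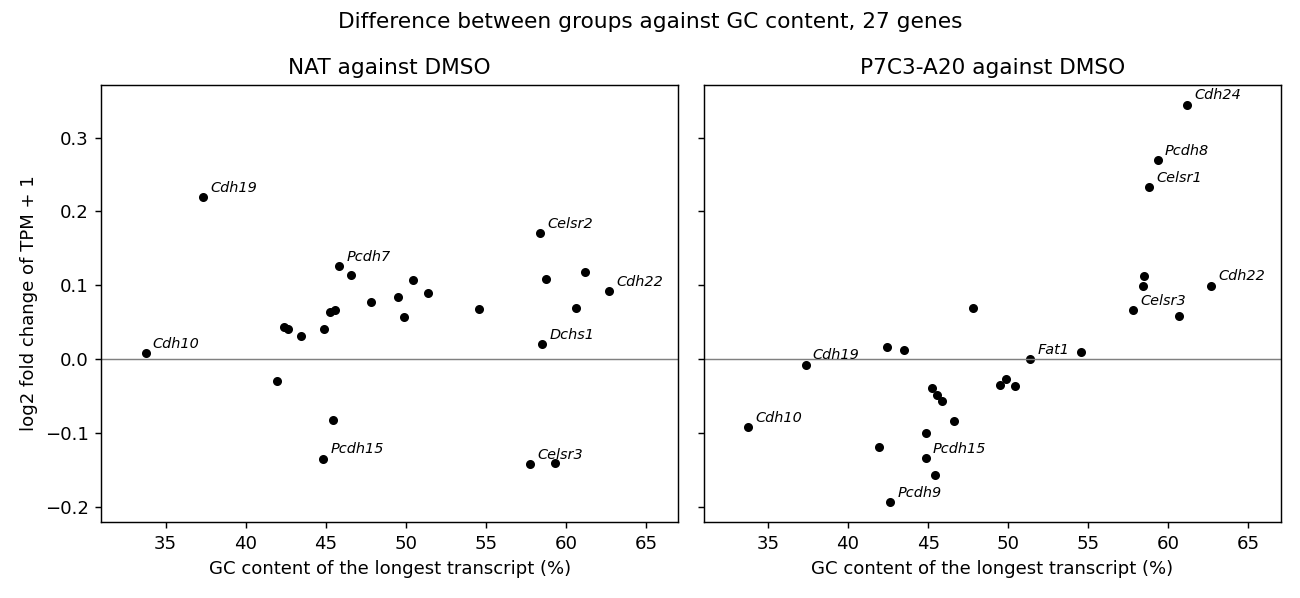
Log2 fold change of TPM + 1 against the GC content of the longest transcript for the 27 genes, 1 point per gene, for NAT against DMSO (left) and P7C3-A20 against DMSO (right). On the right, GC-rich Cdh24, Pcdh8 and Celsr1 lie highest and Pcdh9, with 42.6% GC, lies lowest (r = 0.746), whereas on the left there is no such slope (r = -0.006).

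P7C3-A20 replicate 3 showed this pattern most. It was the lowest of the 9 libraries for 11 members (Cdh2, Cdh10, Cdh11, Cdh13, Cdh19, Cdh20, Fat3, Pcdh7, Pcdh9, Pcdh17 and Pcdh18) and the highest for 5 (Cdh22, Cdh24, Celsr3, Dchs1 and Pcdh8). Of all tested genes, 23.8% were lowest and 18.6% highest in that library. In log2 per 10 percentage points of GC, its slope was 0.17 over the members and 0.11 over all genes. Over the members the other P7C3-A20 libraries had 0.04 and 0.03, the DMSO libraries -0.08, -0.02 and -0.03, and the NAT libraries -0.09, -0.01 and -0.03. Slopes thus also differed within the DMSO and NAT groups, and NAT replicate 1 had the most negative one. The 9 members of lowest GC averaged -0.15 in that library relative to the DMSO mean on the log2 scale, and the 9 of highest GC averaged 0.21. In P7C3-A20 replicates 1 and 2 the same groups averaged -0.03 and -0.04, and 0.12 and 0.10.

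**Figure D4:**
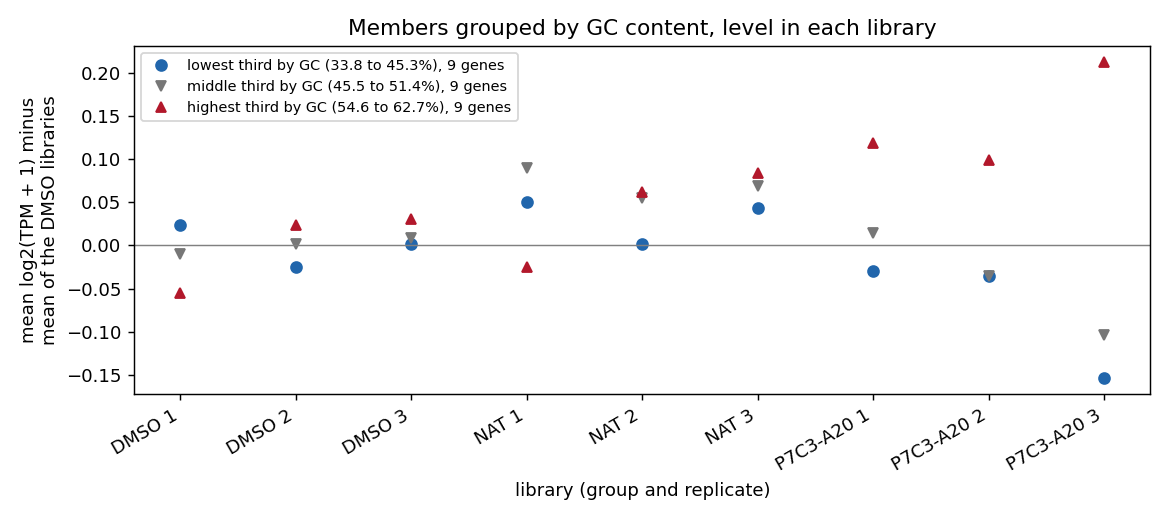
Mean log2(TPM + 1) of the 9 members of lowest, middle and highest GC content in each library, relative to the mean of the DMSO libraries, 1 point per library. In the P7C3-A20 libraries the GC-rich group lies above the GC-poor group, with the widest gap in replicate 3 (0.21 against -0.15).

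When each library's trend with GC content was removed over all genes, the P7C3-A20 against DMSO values became 0.13 for Celsr1, -0.14 for Pcdh9, 0.02 for Dchs1, 0.24 for Cdh24, 0.17 for Pcdh8 and -0.01 for Cdh22. The direction of Cdh22 turned, and the other 5 kept their direction at a smaller size. The number of members with an unadjusted p below 0.05 in limma went from 5 to 2, Celsr1 and Pcdh9, beside 11.0% of all genes, and voom after the same correction called 0 members, beside 0.255% of all genes, with adjusted p of 0.198 for Celsr1 and 0.173 for Pcdh9. For NAT against DMSO the count went from 5 to 3, beside 12.0% of all genes, with Celsr2 at 0.14, Cdh19 at 0.20 and Pcdh15 at -0.17, and voom called 0 members, beside 0.387% of all genes. How much of the remaining differences follows the libraries was not tested.

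Between the compounds, with NAT against P7C3-A20 at the same dose, limma called 0 of 27 members and 0.0% of all genes. Pcdh7 averaged 38.5 ± 1.27 TPM under NAT and 33.8 ± 2.08 TPM under P7C3-A20 (SD, n = 3), which differed by 0.18 ± 0.05 (SE) on the log2 scale. Pcdh9 averaged 67.8 ± 5.27 and 57.5 ± 4.78 TPM (0.23 ± 0.07), and Cdh2 183 ± 0.515 and 169 ± 6.42 TPM (0.12 ± 0.03). Pcdh8 went the other way, with 4.08 ± 0.439 TPM under NAT and 5.74 ± 0.260 TPM under P7C3-A20 (-0.41 ± 0.12). Fat3 averaged 21.0 ± 0.452 and 18.2 ± 1.46 TPM (0.20 ± 0.07), and Pcdh17 53.3 ± 0.330 and 49.2 ± 1.58 TPM (0.11 ± 0.04). These 6 genes were picked for the lowest p in this comparison, so that the compounds did not overlap for any of them adds no support. Over all genes 13.3% did not overlap with NAT higher and 8.35% with NAT lower. For the 6 genes limma adjusted p ran from 0.190 for Pcdh7 and Pcdh9 to 0.247 for Pcdh17. With the GC trend removed, Pcdh9 was 0.15 and Pcdh17 was 0.06, and the other 4 were 0.13 for Pcdh7, 0.11 for Cdh2, -0.34 for Pcdh8 and 0.16 for Fat3.

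This contrast had the most members at an unadjusted p below 0.05 in limma. They were 9 higher with NAT and 2 lower, against 9.92% and 5.89% of all genes. With voom they were 9 higher and 4 lower, beside 18.0% of all genes in either direction. The limma sum of 11 was 7 without NAT replicate 1, beside 10.3%, and 5 without P7C3-A20 replicate 3, beside 9.55%. It was 10 after the GC trend was removed, beside 11.7% of all genes. The groups did not overlap for 9 members higher and 2 lower, against 13.3% and 8.35% of all genes, and without P7C3-A20 replicate 3 for 11 higher and 2 lower, against 16.7% and 12.1%. A positive value was found for 20 of 27 members and 54.0% of all genes, with medians of 0.07 and 0.01, and the member median was 0.04 without P7C3-A20 replicate 3. Voom on the recovered reads called 4 members beside 2.38% of all genes, which were Pcdh7 (0.17, adjusted p = 0.0407), Pcdh9 (0.22, 0.0304), Pcdh8 (-0.50, 0.0398) and Fat3 (0.19, 0.0394). After removal of the GC trend voom called 0 members, beside 0.453% of all genes, with adjusted p of 0.146, 0.123, 0.116 and 0.104 for these genes in that order. Intervals of the ratio of TPM + 1 lay within 1.25-fold for 19 members and within 1.5-fold for 26. The exception on this scale was Pcdh8 with bounds of 0.625 and 0.907, and in TPM the intervals of low genes such as Cdh24 are wider. For the other genes, a missed threshold does not show that the compounds act alike.

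The comparisons with DMSO share the DMSO libraries, and those with P7C3-A20 share its libraries, so their values are set side by side only. Cdh2 was 0.08 with NAT and -0.03 with P7C3-A20 against DMSO, and Pcdh7 was 0.13 and -0.06. Without P7C3-A20 replicate 3 the P7C3-A20 values were -0.0027 and -0.006. Pcdh15 was -0.13 with either compound. Marker lists of the cell types were read in the same libraries, and no gene of them was called by limma. The 6 dividing-cell genes summed to 581 to 692 TPM with DMSO, 653 to 693 TPM under NAT and 545 to 610 TPM under P7C3-A20. The 6 astrocyte genes summed to 4068 to 4312, 4395 to 4574 and 3977 to 4433 TPM in the same order, and the 7 oligodendrocyte lineage genes to 3242 to 3375, 3083 to 3267 and 3212 to 3766 TPM. For NAT against P7C3-A20, 6 of 6 dividing-cell genes and 5 of 6 astrocyte genes had a positive value, with medians of 0.20 and 0.11. Of 7 oligodendrocyte lineage genes 0 did, with a median of -0.13, and over all genes 54.0% did. An unadjusted p below 0.05 in limma was found for 4 dividing-cell genes higher, 1 astrocyte gene higher and 4 oligodendrocyte lineage genes lower. Over all genes these shares were 9.92% higher and 5.89% lower. The lowest adjusted p was 0.168, for Sox10 (-0.32). These marker values are from the fit without GC removal, in a comparison that moved with GC content over all genes (rho -0.470). For NAT against P7C3-A20 the 8 progenitor genes had 4 positive values and the 7 neuronal genes 3. The progenitor genes summed to 19239 to 19628 TPM with DMSO, 18596 to 19032 TPM under NAT and 17636 to 18523 TPM under P7C3-A20, without overlap. Fabp7 made up the greater part, with means of 12202, 11411 and 10932 TPM. Against DMSO, 3 of the 8 progenitor genes had a positive value with either compound, and the list medians were -0.02 with NAT and -0.03 with P7C3-A20. The part of cell composition in the cadherin values was not tested.

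The partners through which cadherins act were also read from the same fit, and no gene of any of these lists was called by limma in any comparison. Of 16 catenin and junction genes, 15 were tested, led by beta-catenin Ctnnb1 at 1018 ± 14.4, 1013 ± 5.57 and 995 ± 19.8 TPM with DMSO, NAT and P7C3-A20. Alpha-catenin Ctnna1 had 241 ± 5.24, 252 ± 3.34 and 237 ± 11.4 TPM, and the neural delta-catenin Ctnnd2 had 189.5 ± 2.95, 204 ± 6.08 and 203 ± 6.06 TPM. With NAT, 2 of the 15 had an unadjusted p below 0.05 and a higher mean and 1 a lower mean, and with P7C3-A20 3 had a higher mean. The list median was 0.01 in both comparisons with DMSO, beside 0.03 and 0.01 over all genes.

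All 13 planar polarity partners of the Celsr and Fat proteins were tested, the most abundant being the receptor gene Fzd3 at 136 ± 3.72, 140.1 ± 6.42 and 123 ± 7.85 TPM, the adaptor gene Dvl3 at 125 ± 7.63, 134 ± 4.06 and 137 ± 6.49 TPM, and Fjx1, which encodes a Four-jointed kinase relative, at 81.8 ± 3.62, 79.1 ± 1.80 and 86.1 ± 1.44 TPM. Against DMSO, 0 had an unadjusted p below 0.05 with NAT, and 3 higher and 1 lower with P7C3-A20. Of 12 genes for cleavage and trafficking of cadherins, Adam9 (202 ± 0.286 TPM with DMSO), Adam10, the main sheddase of N-cadherin (158 ± 1.28 TPM), and the gamma-secretase subunit Ncstn (131 ± 2.30 TPM) led. In that list 2 were higher at that level with NAT, and 4 higher and 1 lower with P7C3-A20. Over all genes these shares were 8.67% higher and 3.0% lower with NAT, and 10.7% and 5.12% with P7C3-A20, which also stand beside the counts for catenins and polarity partners.

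Transcriptional repressors of cadherin genes were expressed beside them. Of 8, only Tcf4, Zeb1 and Zeb2 were tested, at 447 ± 3.37, 278 ± 0.809 and 63.7 ± 1.64 TPM with DMSO, while Snai3 and Twist2 were listed at 0. The Zeb2 mean was 60.4 ± 2.14 TPM under NAT and 56.4 ± 3.05 TPM under P7C3-A20, and for P7C3-A20 against DMSO limma gave -0.18 ± 0.05 on the log2 scale at an adjusted p of 0.166.

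The clustered protocadherins, which the rule for members left out and whose many isoforms give neurons a surface identity, were read as a family. Of 59 symbols, 48 were tested, and their levels summed to 849 to 881 TPM with DMSO, 921 to 927 TPM under NAT and 884 to 901 TPM under P7C3-A20. The 3 groups did not overlap in this sum, which was mostly that of the gamma genes (686 to 712, 746 to 760 and 720 to 738 TPM). The beta sums overlapped between groups (148 to 152, 146 to 162 and 139 to 149 TPM), as did the alpha sums (13.7 to 16.2, 14.3 to 15.0 and 14.4 to 15.2 TPM). Pcdhgc3 made up the greater part, at 459 ± 6.64, 494 ± 6.40 and 483 ± 11.1 TPM, with log2 fold changes against DMSO of 0.10 ± 0.03 for NAT and 0.07 ± 0.03 for P7C3-A20 and limma adjusted p of 0.260 and 0.268. Next by mean over the 9 libraries were Pcdhga7 (18.3 ± 1.00 TPM with DMSO) and Pcdhga3 (19.3 ± 0.905 TPM). The alpha and gamma genes share constant exons, so their division into single genes is uncertain. For NAT against DMSO, 19 of 22 gamma genes had a positive value, with a median of 0.09, against 12 of 21 beta genes (0.02) and 0 of 5 alpha genes (-0.01). Over all genes 63.5% were positive with a median of 0.03, and the difference between these groups was not tested.

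Of 15 further members of the superfamily, 13 were in the table and 6 were tested. The calsyntenin gene Clstn1, whose protein guides transport in neurons, led with 259 ± 10.7, 271 ± 9.59 and 279 ± 7.50 TPM with DMSO, NAT and P7C3-A20. Pcdh11x had 26.5 ± 0.712, 26.0 ± 0.779 and 24.0 ± 0.939 TPM, and the desmosomal Dsc2 had 3.89 ± 0.414 TPM with DMSO. Against DMSO, 0 had an unadjusted p below 0.05 in limma with NAT, while Clstn1 was higher and Pcdh11x lower with P7C3-A20. Over all genes the shares were 8.67% higher and 3.0% lower with NAT, and 10.7% and 5.12% with P7C3-A20. The values of these lists, from the catenins on, are from the fit without GC removal.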

How the data were processed

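RNA of the 9 samples was sequenced from TruSeq RNA libraries, per the labels' protocols, which do not state that strand was kept, so overlapping genes on opposite strands cannot be told apart. The authors deposited TPM per gene symbol, and every column sums to 1000000. Bowtie 0.12.2 and the builds mm8 and mm9 are named in the submitters' processing notes, without a role. For the counter, the annotation and the gene lengths nothing is given in the sources used here, so levels between genes rest on the authors' lengths.

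Whole reads were recovered from the steps of the TPM values (tolerance 0.001) for 18057 of 18058 genes with a value in at least 2 libraries (99.99%), all members with such values included. Rn45s was not recovered. These reads gave the depth and the voom alternatives.

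As the values are TPM and not counts, the test was limma-trend 3.58.1 (R 4.3.3) on log2(TPM + 1), a scale that understates changes of low genes, over 13839 genes with at least 1 TPM in 3 libraries. All 9 libraries entered 1 fit (6 residual degrees of freedom). All tests were two-sided and adjusted over all genes by Benjamini-Hochberg, with 0.05 as the threshold. Values were given in full for the 8 highest members, the 6 of lowest p per comparison, any called member, and Cdh1, Cdh2 and Cdh5, and of other lists for the 3 highest genes. Members and lists were chosen with earlier results of these data known. GC content came from the longest GENCODE transcript (GRCm38) and was found for 41 of 41 members and 98.3% of symbols, and its trend was a spline with 5 degrees of freedom. RefSeq GRCm38.p6 gave neighbours and promoters. Scripts were tested on simulated data. Alternatives were a replicate block, quantile normalization, other pseudocounts and minimums, voom, GC removal, the 6 compared libraries and each library left out; voom with GC removal was chosen after seeing the data.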

Additional observations from a re-analysis of the deposited data

How the results depend on the processing

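No member was called by limma-trend under the replicate block, quantile normalization, a pseudocount of 0.1, no filter, a minimum of 5 TPM, the 6 compared libraries, GC removal, or with any library left out. Voom called 2 members in P7C3-A20 against DMSO and 4 between the compounds, and 0 once the GC trend was removed. Cdh22 in P7C3-A20 against DMSO turned from 0.10 to -0.01 with the GC trend removed, alone (-0.0122), with the replicate block (-0.0122) and in voom (-0.0131). Of the values under alternatives for the 6 members of lowest p in each comparison, 333 kept their direction and side of the threshold. Part of this count was fixed in advance. The replicate block, the other filters, the 6 compared libraries and leaving out a library of the third group cannot change the log2 fold change. Under these only the adjusted p could move, so the count does not measure how firm the directions are. Another 6 newly passed the threshold, the voom calls named above, and 3 turned direction, those of Cdh22. Some values outside this set changed sign more often. In P7C3-A20 against DMSO, Cdh4 did so under 8 of 19 alternatives and Cdh19 under 5 of 19.

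Counts over all genes were small and moved more. For NAT against DMSO the 4 genes called became 1 with a pseudocount of 0.1, 2 with a minimum of 5 TPM, 27 with voom, 53 with voom and GC removal, 7 with the 6 compared libraries and 1 to 11 with a library left out. For P7C3-A20 against DMSO the 3 called became 0 with a pseudocount of 0.1, 0 with a minimum of 5 TPM, 250 with voom, 35 with voom and GC removal, 5 with the 6 libraries and 1 to 10 with a library left out. For NAT against P7C3-A20 the 0 called (2188 at an unadjusted p below 0.05) became 329 with voom, 62 with voom and GC removal, 5 with the 6 libraries and 0 to 2 with a library left out. The causes were not tested.

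The replicate block gave 3, 7 and 1 called genes in these comparisons, and 1 for P7C3-A20 against DMSO with GC removal. Libraries of different groups were correlated after the group mean of each gene was subtracted. The values ran from -0.062 to 0.067 for same-numbered libraries and from -0.090 to 0.099 for the others. The numbers were therefore not taken to pair the samples. Depth limits Cdh24, Pcdh8, Pcdh18 and Pcdh20, with 182 reads or fewer in each library, and the 14 members below the minimum.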
